A study of Rattus norvegicus with 30 samples.

Results

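The genes described here are the nuclear-encoded parts of the mitochondrial respiratory chain and the ATP synthase, read in rat liver cells in culture. They were taken by name: probe sets with a single gene symbol that starts with Nduf, Uqcr or Atp5, with Cox followed by 4, 5, 6, 7 or 8, and Sdha, Sdhb, Sdhc and Sdhd, with the brightest probe set (the highest mean log2 signal over all arrays) standing for its gene. This gave 86 genes out of the 14217 genes with a probe set of a single symbol, namely 36 of complex I, 6 complex I assembly factors, 4 of complex II, 7 of complex III, 17 of complex IV and 16 of complex V. The rule used no comparison between groups. Each gene was counted to a complex by the start of its symbol, so Ndufa4 and Ndufa4l2 count to complex I here. The study exposed primary rat hepatocytes to phenobarbital and asked how the response depends on dose and time, on 30 GeneChip Rat Genome 230 2.0 arrays, each carrying RNA of 1 culture well. The hepatocytes were from male Sprague Dawley rats, came frozen from a supplier, grew on collagen with a Matrigel overlay, and received the compound on culture day 3. The 6 groups of 5 wells received vehicle, 300 µM or 3000 µM phenobarbital and were harvested after 24 h or 48 h. The titles give the vehicle as water, whereas the agent field gives culture medium. The wells of a group count as separate cultures in the labels, which number no animals and leave unsaid whether cells were pooled from several, so each p-value measures the spread between wells.

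The respiratory chain passes electrons from NADH, through complex I, and from succinate, through complex II, to coenzyme Q, then through complex III and cytochrome c to complex IV, which reduces oxygen. Complexes I, III and IV pump protons across the inner mitochondrial membrane, and the ATP synthase, complex V, uses the gradient to make ATP. Most subunits are encoded in the nucleus, a few in the mitochondrial genome, and dedicated assembly factors join them without staying in the finished enzyme. Hepatocytes rely on this chain for gluconeogenesis, urea synthesis and the oxidation of fatty acids. Phenobarbital is a barbiturate that activates the nuclear receptor CAR and induces drug metabolism in liver.

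Promoters of nuclear respiratory genes often carry the element GCATGCGC, part of the core bound by the factor NRF1, or the ETS family element CCGGAAG, bound by factors such as GABPA. RefSeq promoter windows of the GRCr8 rat assembly, from 250 bases before to 50 bases after the gene start, were found for 78 of the 86 genes and searched on both strands. CCGGAAG stood in 22 of the 78 windows (28.2%), against 2927 of all 33469 windows (8.75%). GCATGCGC stood in 9 of the 78 windows (11.5%), against 827 of all (2.47%). Shown here are the 200 bases before the start of 5 genes on which the results turn: the assembly factors Ndufaf4 and Ndufaf1, which rose, the complex II subunits Sdhb and Sdhd, which fell, and Ndufa4l2, which fell furthest. Capitals mark matches to these elements on either strand, which in Ndufaf4 are 2 overlapping matches to GCATGCGC on opposite strands, and the Ndufa4l2 stretch holds none of these letters. The stretches are chr5:43401595-43401794, forward strand, chr3:127104021-127104220, reverse strand, chr5:158547734-158547933, forward strand, chr8:59850642-59850841, reverse strand, and chr7:65241969-65242168, forward strand, in that order.
Ndufaf4: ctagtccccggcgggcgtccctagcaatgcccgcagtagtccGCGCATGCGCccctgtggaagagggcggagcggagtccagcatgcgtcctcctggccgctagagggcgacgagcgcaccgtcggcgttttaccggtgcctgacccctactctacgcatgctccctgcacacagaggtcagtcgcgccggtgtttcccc
Ndufaf1: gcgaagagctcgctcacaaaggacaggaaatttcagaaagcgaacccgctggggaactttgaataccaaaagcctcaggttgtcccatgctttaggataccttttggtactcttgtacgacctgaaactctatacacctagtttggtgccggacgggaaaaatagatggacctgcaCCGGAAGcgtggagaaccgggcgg
Sdhb: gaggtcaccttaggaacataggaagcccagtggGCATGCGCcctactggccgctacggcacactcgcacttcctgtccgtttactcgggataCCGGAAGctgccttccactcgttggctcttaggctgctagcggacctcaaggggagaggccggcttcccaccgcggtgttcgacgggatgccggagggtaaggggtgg
Sdhd: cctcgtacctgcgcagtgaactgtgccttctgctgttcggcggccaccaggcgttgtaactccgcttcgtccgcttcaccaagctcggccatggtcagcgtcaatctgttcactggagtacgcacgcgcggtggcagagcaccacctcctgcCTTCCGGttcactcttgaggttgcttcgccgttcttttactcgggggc
Ndufa4l2: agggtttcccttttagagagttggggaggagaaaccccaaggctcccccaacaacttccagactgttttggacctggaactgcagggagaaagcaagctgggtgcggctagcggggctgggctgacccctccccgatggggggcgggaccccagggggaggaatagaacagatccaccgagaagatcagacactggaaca
A match describes the letters of the window and is no measure of binding. Of the 22 genes with CCGGAAG, all tested, 8 fell and 1 rose at 3000 µM after 24 h. Of the 53 tested genes with a window and without it, 28 fell and 2 rose. In this comparison 14.8% of all probe sets tested fell and 17.3% rose. Of the tested probe sets with a mean log2 signal of 14 or more, 35.1% fell.

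Levels are given as log2 of the deposited signal, and a difference of 1 on this scale is a doubling. Array medians lay between signals of 349 and 425, and the arrays of a group correlated with each other at 0.951 to 0.982 over all probe sets. On 2 arrays the hybridisation spike controls averaged 14.38 (vehicle at 24 h, array 1) and 14.83 (3000 µM at 48 h, array 4), against 13.21 to 13.60 on the others. The second of these also had the largest difference between the 3′ and 5′ actin probe sets, 1.91 on the log2 scale. The hepatocyte markers on the array were bright in every group, with a summed signal of 371301 to 642053 over all groups but the 300 µM wells at 24 h, where it was 349469 to 436245. Of the markers of other liver cells, 4 of 5 endothelial, 4 of 8 stellate cell and 3 of 4 cholangiocyte genes lay below the filter level in all groups, while 7 of 8 Kupffer cell and macrophage genes reached it in at least 1 group mean. In such bulk cultures, fewer cells of a type and less RNA per cell cannot be told apart.

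Of the 86 genes, 82 reached the level required for testing, a log2 signal of 8.58 in at least 1 group mean. The other 4 were Cox4i2, Cox6b2, Cox7b2 and Cox8b, all variants of complex IV subunits typical of other tissues. "Rose" and "fell" refer to an adjusted p under 0.05 in limma, fitted over 16596 probe sets.

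At 3000 µM, 24 h after dosing, most genes of the chain were slightly lower than in vehicle. Of the 82 tested genes, 40 fell and 3 rose, and the difference was negative for 71. Among all probe sets tested, 14.8% fell and 17.3% rose in this comparison. The median difference of the 82 genes was -0.15 on the log2 scale, against 0.0093 for all probe sets tested. In 32 genes all 5 treated arrays lay below all 5 vehicle arrays, and in 2 genes they lay above, against 11.4% and 13.2% of all probe sets. The differences were small: apart from Ndufa4l2, no structural subunit that fell did so by more than 0.29, the value of Atp5f1b. The falls were spread over the complexes, with 15 of 36 genes of complex I, 4 of 4 of complex II, 3 of 7 of complex III, 9 of 13 of complex IV and 9 of 16 of complex V. The 3 genes that rose were all complex I assembly factors.

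Of the 82 genes, 53 have a mean log2 signal of 14 or more, and bright probe sets as a class were lower after 24 h at 3000 µM. Of the 877 tested probe sets in that class, 35.1% fell and their median difference was -0.10. The 53 chain genes had a median of -0.16, and 32 of them fell. Hepatocyte markers moved the same way, 4 of 6 falling with a median of -0.27, and their summed signal was 438560 to 581855 in the vehicle wells and 373589 to 404293 in the treated wells. What part these values have in the result was not tested. With array medians centred, which raised the median of all probe sets to 0.076 and that of the chain genes to -0.086, 6 genes fell and 3 rose, and with quantile normalization 24 fell and 2 rose. None of the 43 genes that passed changed sign in either setting, nor without the 2 arrays that stood apart, where 46 fell and 2 rose.

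**Figure D1:**
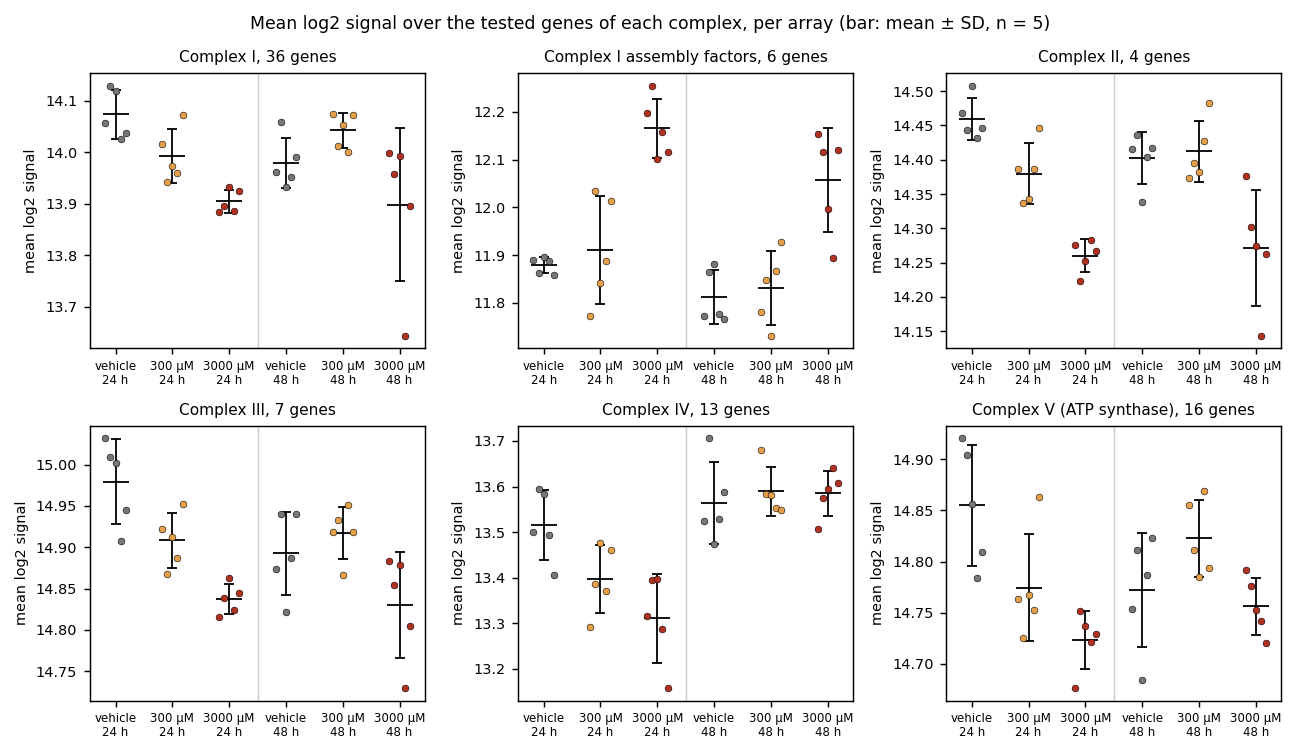
Each point is the mean log2 signal of the tested genes of a complex on 1 array, for vehicle (grey), 300 µM (orange) and 3000 µM phenobarbital (red) at 24 h and 48 h; the long bar is the group mean and the whiskers are the SD (n = 5 wells). At 24 h the mean of complex II was 14.26 at 3000 µM against 14.46 in vehicle, and that of the assembly factors 12.17 against 11.88, and the median changes of both kept their sign with quantile normalization and with array medians centred. At 48 h the median changes of complexes III, IV and V turn sign with array medians centred. The complex IV mean includes Cox6a2, which reached the filter level only through the 48 h groups. In vehicle that mean was 13.52 at 24 h and 13.56 at 48 h, though 10 of its 13 genes were lower at 48 h. The change of the complex IV panel with time is therefore not read as a result.

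After 48 h the picture at 3000 µM was mixed. Of the 82 genes, 13 fell and 8 rose, against 19.9% and 19.5% of all probe sets tested. The median difference was -0.030, and it became 0.011 with array medians centred, where 4 fell and 8 rose, and 0.0027 without vehicle array 2. Without the 2 arrays that stood apart, 11 fell and 12 rose. Of the 53 bright genes of the chain, 11 fell and 4 rose, against 24.4% and 30.0% of all bright probe sets. Groups did not overlap for 6 genes below and 2 above vehicle, against 12.7% and 11.5% of all probe sets. All 3 genes that had risen at 24 h rose again, which is 100.0% of that list and 37.5% of the 8 that rose at 48 h. Of the 13 that fell at 48 h, 12 (92.3%) had also fallen at 24 h, which is 30.0% of the 40 that fell then. The 12 were Ndufa4l2, Ndufa12, Ndufb1, Ndufc1 and Ndufc2 of complex I, Sdha, Sdhb and Sdhd of complex II, Uqcrfs1 of complex III, Cox8a of complex IV, and Atp5mf and Atp5pb of the ATP synthase. The comparisons at 24 h and at 48 h use separate vehicle wells. The same overlap was not counted over all probe sets, so these shares are not shown to be particular to the chain.

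**Figure D2:**
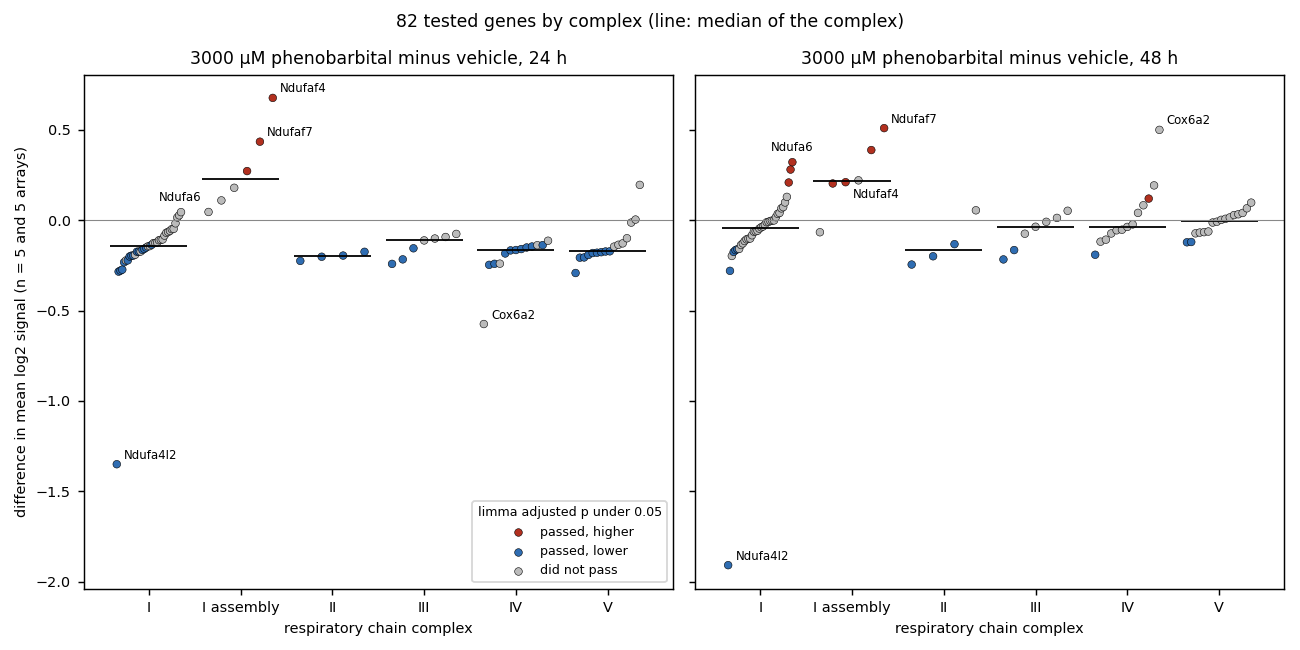
Difference in mean log2 signal between 3000 µM phenobarbital and vehicle (5 wells each) for the 82 tested genes, by complex, at 24 h (left) and 48 h (right); red and blue points passed the limma test, grey points did not, and lines are the median of each complex. Ndufa4l2 stands far below the rest at both times (-1.35 and -1.91), and the assembly factors lie mostly above 0.

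Ndufa4l2 had the largest change among the 82 genes at 3000 µM, at either time. It is a paralog of Ndufa4, a protein first counted to complex I and now assigned to complex IV, and is known as a gene induced in low oxygen through HIF1. The vehicle wells at 24 h read 11.45, 11.84, 11.87, 12.14 and 12.28. The 300 µM wells read 11.40, 11.77, 11.79, 11.83 and 11.96. The 3000 µM wells read 10.40, 10.48, 10.58, 10.59 and 10.79. All 5 wells at 3000 µM were below every vehicle and 300 µM well, while the latter groups overlapped. The fall at 3000 µM was 2.55-fold, or -1.35 on the log2 scale (SE 0.17, limma adjusted p = 1.27e-07).

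At 48 h, Ndufa4l2 in vehicle had the values 12.23, 12.46, 12.63, 12.77 and 12.89. With 300 µM they were 11.88, 12.35, 12.54, 12.59 and 12.83. With 3000 µM they were 10.27, 10.41, 10.68, 10.87 and 11.20. The treated wells again lay clear of both other groups, 3.76-fold below vehicle (-1.91, SE 0.17, limma adjusted p = 7.47e-11). Vehicle wells themselves rose by 0.68 from 24 h to 48 h (limma adjusted p = 0.00933), though the wells of the 2 times overlapped. The test of the difference between the falls at 48 h and 24 h did not pass ( -0.56, 95% interval -1.04 to -0.073, limma adjusted p = 0.184). At 300 µM the differences from vehicle were -0.17 and -0.16, with limma adjusted p = 0.724 and 0.804. Its paralog Ndufa4, named for comparison after its values were seen, fell by 0.16 at 24 h (limma adjusted p = 0.00955), with overlapping wells, and was at 0.017 from vehicle at 48 h (limma adjusted p = 0.827). The fall of Ndufa4 at 24 h did not pass with quantile normalization (adjusted p = 0.181) or with array medians centred (0.282).

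Of the genes counted to complex I by name, assembly factors aside, those other than Ndufa4l2 moved little. In the membrane arm, the accessory subunit Ndufc1 read 14.57, 14.57, 14.60, 14.63 and 14.66 in vehicle at 24 h. At 3000 µM it read 14.21, 14.32, 14.35, 14.35 and 14.39, with no overlap. It fell by 0.28 (SE 0.049, limma adjusted p = 2.30e-05) and, at 48 h, by 0.17 (0.00689). Ndufb1, another membrane arm accessory subunit, fell by 0.28 at 24 h (limma adjusted p = 0.000379) and 0.28 at 48 h (0.000262), each time with all treated wells below all vehicle wells. Ndufc2, partner of Ndufc1, fell by 0.22 and 0.18 (limma adjusted p = 0.000879 and 0.00606), also without overlap. Of the core subunits, which carry the flavin and the iron-sulphur clusters, 6 were measured and 5 fell at 24 h as deposited, none of them with array medians centred. Ndufv1, which binds NADH and the flavin, fell by 0.27 (limma adjusted p = 0.00450, 0.120 with array medians centred) with overlapping wells. Ndufs3, Ndufs7, Ndufs8 and Ndufv2 fell by 0.23, 0.20, 0.15 and 0.16, the last with overlapping wells. Ndufs1, the largest iron-sulphur subunit, differed by -0.070 at 24 h and -0.13 at 48 h and passed at neither time (limma adjusted p = 0.482 and 0.140). The 21 genes of complex I that did not pass at 24 h lay between -0.22 and 0.045, and the 28 that did not pass at 48 h between -0.20 and 0.13. At 48 h the median difference of the complex, -0.043, became 0.016 without the 2 arrays that stood apart.

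At 48 h, 3 of the 36 structural genes counted to complex I rose and 5 fell, beside 19.5% and 19.9% of all probe sets. Of the bright probe sets, 30.0% rose and 24.4% fell. The 3 that rose were Ndufa6, Ndufab1 and Ndufb5. Ndufa6, an accessory subunit that contacts the acyl carrier protein, read 14.48, 14.51, 14.52, 14.56 and 14.56 in vehicle. The 300 µM wells had 14.65, 14.66, 14.67, 14.71 and 14.73. The 3000 µM wells had 14.69, 14.84, 14.88, 14.90 and 14.92. Every treated well of either dose was above every vehicle well, and the 2 doses overlapped. The rise at 3000 µM was 0.32 (SE 0.043, limma adjusted p = 2.93e-07), and the difference at 300 µM was 0.16 (0.0571). Ndufab1, the mitochondrial acyl carrier protein, which also serves lipoic acid and iron-sulphur cluster synthesis, rose by 0.28 (SE 0.064, limma adjusted p = 0.000612), and read 13.91 to 14.20 in vehicle and 14.12 to 14.53 at 3000 µM, with overlap. Ndufb5, a membrane arm subunit outside the naming rule, rose by 0.21 (limma adjusted p = 0.000690), and its groups overlapped in 1 treated well that read 14.42. After 24 h these genes differed from vehicle by 0.045, -0.059 and 0.015, and none passed.

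The complex I assembly factors were the group that stood above vehicle. Of 6 genes tested, 3 rose at 24 h and 4 at 48 h at 3000 µM, and none fell, while 17.3% and 19.5% of all probe sets rose. Their mean log2 signals, 10.93 to 13.72, lay below those of the bright class, which was lower at 24 h. Their median differences were 0.23 and 0.22, and both stayed positive with quantile normalization (0.18 and 0.21) and with array medians centred (0.29 and 0.26). All 6 are described here, though only Ndufaf4 and Ndufaf7 meet the naming rule. Ndufaf4, an early assembly factor that works with Ndufaf3, read 13.41, 13.50, 13.57, 13.61 and 13.66 in vehicle at 24 h. With 300 µM it read 13.69, 13.74, 13.80, 13.995 and 14.004. With 3000 µM it read 14.15, 14.19, 14.19, 14.28 and 14.30. The 3 groups did not overlap at all, in the order of dose. Against vehicle the rise was 0.30 at 300 µM (SE 0.075, limma adjusted p = 0.0216) and 0.68 at 3000 µM (adjusted p = 1.27e-08), or 1.60-fold. The doses themselves differed by 0.38 (limma adjusted p = 0.000218).

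At 48 h the rise of Ndufaf4 was smaller. Vehicle wells had 13.40, 13.45, 13.48, 13.50 and 13.52. The 300 µM wells had 13.31, 13.47, 13.60, 13.66 and 13.75. The 3000 µM wells had 13.46, 13.56, 13.72, 13.77 and 13.88. Treated and vehicle wells now overlapped, with a rise of 0.21 at 3000 µM (limma adjusted p = 0.0255) that did not pass without 1 of 4 single wells (adjusted p up to 0.0984). The drop in effect from 24 h to 48 h was -0.47 (SE 0.11, limma adjusted p = 0.0111, 0.0525 with array medians centred).

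Ndufaf7, a methyltransferase needed for complex I assembly, rose at both times. At 24 h the vehicle wells read 10.88, 11.04, 11.12, 11.18 and 11.19. The 3000 µM wells read 11.41, 11.46, 11.54, 11.56 and 11.60. At 48 h, vehicle read 10.99 to 11.16 and 3000 µM 11.41 to 11.70. Groups were separate at each time, and the rises were 0.43 (SE 0.069, limma adjusted p = 7.36e-06) and 0.51 (adjusted p = 3.26e-07). The 300 µM wells, at 10.89 to 11.02 and 10.94 to 11.20, overlapped vehicle. A dimmer second probe set of Ndufaf7 differed by only 0.19 and 0.074 and did not pass (limma adjusted p = 0.328 and 0.723).

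Ndufaf1, a member of the MCIA complex that builds the membrane arm, rose by 0.27 at 24 h (limma adjusted p = 0.0441) and by 0.39 at 48 h (0.00309). Its wells overlapped at both times, 11.01 to 11.53 in vehicle and 11.49 to 11.93 at 3000 µM after 48 h, and the rise at 24 h did not pass in 13 of 21 other settings. Ndufaf3, the partner of Ndufaf4, rose by 0.20 at 48 h (limma adjusted p = 0.0330, not passed in 8 of 21 other settings), after 0.11 at 24 h (not passed, 0.299). Ndufaf5, a hydroxylase of the core subunit Ndufs7, and its partner Ndufaf8 did not pass. They differed by 0.045 and 0.18 at 24 h, and by -0.067 and 0.22 at 48 h.

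**Figure D3:**
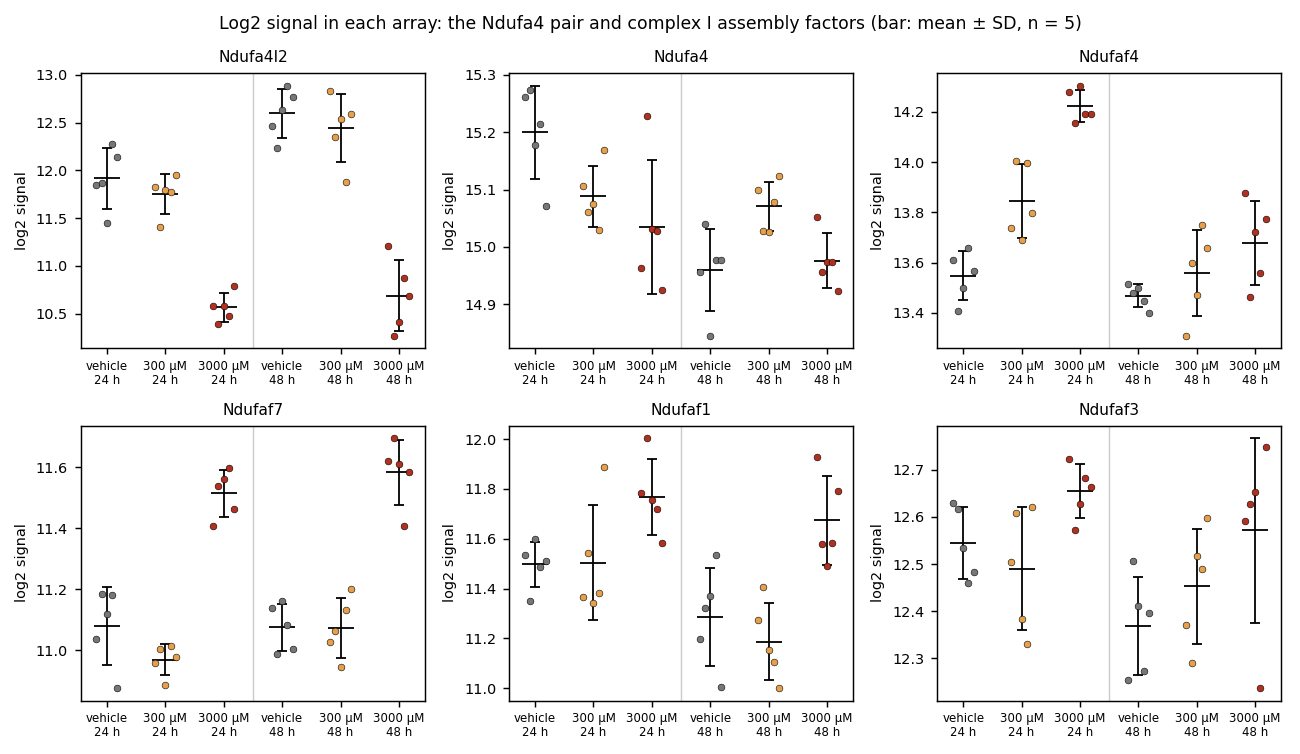
Log2 signal of 6 genes on each array (points), with group mean and SD (n = 5), for vehicle (grey), 300 µM (orange) and 3000 µM (red) at 24 h and 48 h. Ndufa4l2 falls clear of vehicle at 3000 µM at both times while its paralog Ndufa4 differs by -0.16 and 0.017; Ndufaf4 rises with dose at 24 h and Ndufaf7 only at 3000 µM, where its wells read 11.41 to 11.60 and 11.41 to 11.70.

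Complex II, succinate dehydrogenase, is the entry point shared with the tricarboxylic acid cycle, and all 4 of its genes fell at 3000 µM after 24 h without any overlap with vehicle. Of all probe sets, 14.8% fell and 11.4% lay below vehicle without overlap. The median difference was -0.20. It was -0.15 with quantile normalization, where all 4 still fell, and -0.13 with array medians centred, where none passed (adjusted p of 0.343 for Sdha, 0.192 for Sdhb, 0.176 for Sdhc and 0.0733 for Sdhd). Sdhd, a membrane anchor, read 14.67, 14.67, 14.69, 14.72 and 14.75 in vehicle. At 300 µM it read 14.58, 14.60, 14.61, 14.63 and 14.63. At 3000 µM it read 14.44, 14.45, 14.48, 14.48 and 14.53. The 3 groups were separate and in the order of dose, with -0.23 at 3000 µM (SE 0.043, limma adjusted p = 0.000111) and -0.095 at 300 µM (not passed, 0.295).

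Sdha, the flavoprotein that oxidises succinate, lay at 13.47 to 13.55 in vehicle and 13.22 to 13.43 at 3000 µM. The fall was 0.18 (SE 0.056, limma adjusted p = 0.0151), while the 300 µM wells, at 13.43 to 13.55, spanned the vehicle range. Sdhb, the iron-sulphur subunit, lay at 14.80 to 14.95 in vehicle and 14.66 to 14.71 at 3000 µM, a fall of 0.20 (limma adjusted p = 0.00117). Sdhc, the other anchor, lay at 14.67 to 14.90 in vehicle and 14.52 to 14.61 at 3000 µM, a fall of 0.20 (limma adjusted p = 0.00157).

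After 48 h, 3 of the 4 genes of complex II fell, beside 19.9% of all probe sets. Sdhd was again without overlap, 14.55, 14.64, 14.64, 14.69 and 14.72 in vehicle and 14.36, 14.42, 14.48, 14.49 and 14.50 at 3000 µM. It fell by 0.20 (limma adjusted p = 0.000350). Sdha fell by 0.25 (SE 0.056, limma adjusted p = 0.000595), with 1 treated well among the vehicle wells. Sdhb fell by 0.13 (limma adjusted p = 0.0213), not passed in 6 of 21 other settings. Sdhc was at 0.055 from vehicle (limma adjusted p = 0.409), and its effect differed between the times by 0.26 (adjusted p = 0.0314). With array medians centred, only Sdha kept its call at 48 h, while the median of the complex stayed negative (-0.13).

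**Figure D4:**
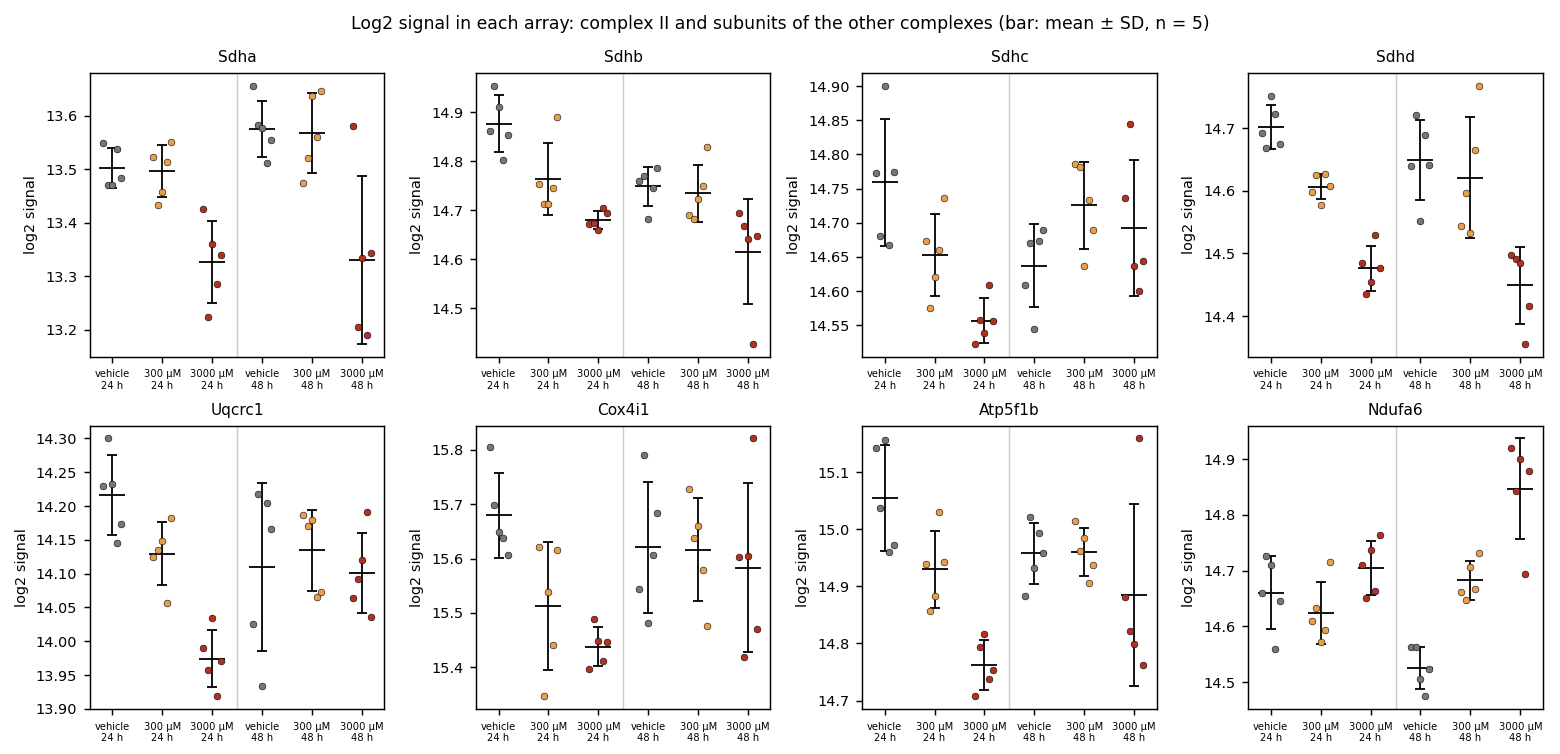
Log2 signal on each array (points), with group mean and SD (n = 5), of the 4 complex II genes and of Uqcrc1, Cox4i1, Atp5f1b and Ndufa6, for vehicle (grey), 300 µM (orange) and 3000 µM (red). At 24 h the 3000 µM wells lie below all vehicle wells for every gene but Ndufa6; at 48 h Sdhd stays below, Ndufa6 lies above (14.69 to 14.92 against 14.48 to 14.56) and the others overlap vehicle.

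In complex III, 3 of 7 genes fell at 3000 µM after 24 h, beside 14.8% of all probe sets and 35.1% of the bright ones. All 7 differences were negative (median -0.11). Uqcrc1, a core protein, read 14.15, 14.17, 14.23, 14.23 and 14.30 in vehicle. At 3000 µM it read 13.92, 13.96, 13.97, 13.99 and 14.04. The fall was 0.24 (SE 0.049, limma adjusted p = 0.000231) and is 1 of the 9 that also passed with array medians centred. At 48 h the difference was -0.0091 (95% interval -0.11 to 0.093). Uqcrfs1, the Rieske iron-sulphur protein, fell by 0.22 at 24 h (limma adjusted p = 0.000190, no overlap) and by 0.17 at 48 h (0.00256, overlapping wells). Its vehicle wells also fell from 24 h to 48 h, by 0.17 (limma adjusted p = 0.0124), lying at 15.07 to 15.18 and then at 14.87 to 15.02. Uqcr10, a small subunit outside the naming rule, was the only gene of the chain that fell at 48 h without having fallen at 24 h (-0.22, limma adjusted p = 0.0140, against -0.11 at 24 h). The difference between its effects at the 2 times did not pass (-0.11, adjusted p = 0.624). At 48 h, 2 of 7 genes of the complex fell, beside 19.9% of all probe sets, and the median, -0.036, became 0.0042 with array medians centred.

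In complex IV, cytochrome c oxidase, 9 of 13 tested genes fell at 3000 µM after 24 h, beside 14.8% of all probe sets and 35.1% of the bright ones. All 13 differences were negative, including that of Cox6a2, whose means at 24 h lay below the filter level. The median was -0.17. With quantile normalization 3 fell, and with array medians centred 1 fell, Cox8a. Cox8a, the form of subunit VIII found in liver, read 15.17, 15.20, 15.27, 15.32 and 15.37 in vehicle. At 3000 µM it read 14.94 to 15.09 over the 5 wells. The groups were separate, with a fall of 0.25 (SE 0.047, limma adjusted p = 8.88e-05), and of 0.19 at 48 h (0.00127, overlapping wells). Cox4i1, the ubiquitous form of subunit IV, which binds ATP as an allosteric regulator, lay at 15.61 to 15.81 in vehicle and 15.40 to 15.49 at 3000 µM. It fell by 0.24 (limma adjusted p = 0.00395, 0.0839 with array medians centred). At 48 h it was at -0.037 (limma adjusted p = 0.691). Smaller falls at 24 h were those of Cox7c (-0.15, limma adjusted p = 0.0202) and Cox6a1 (-0.16, 0.0470), the latter not passed in 13 of 21 other settings. Cox5a, read here by a probe set of its own, did not pass at either time (-0.11 and 0.19). Its vehicle wells at 48 h lay at 11.61 to 12.19. The 3000 µM wells read 11.53, 11.67, 11.70, 12.26 and 12.87, the last on array 4, 1 of the 2 arrays that stood apart. Cox6c, a subunit whose probe set may also detect transcripts like those of the pseudogene Cox6c-ps1, fell by 0.17 at 24 h (limma adjusted p = 0.00952), and the probe set of Cox6c-ps1 differed by -0.14 (not passed).

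Cox7a2l, which helps to join complexes III and IV into supercomplexes, fell by 0.14 at 24 h (limma adjusted p = 0.0199) and rose by 0.12 at 48 h (0.0379). Its wells at 24 h were 13.92 to 14.03 in vehicle and 13.77 to 13.85 at 3000 µM, without overlap. At 48 h they were 13.98, 14.02, 14.13, 14.13 and 14.22 in vehicle and 14.17, 14.17, 14.18, 14.18 and 14.37 at 3000 µM. These overlapped, and the rise at 48 h did not pass in 9 of 21 other settings. At 48 h complex IV had 1 gene higher and 1 lower, against 19.5% and 19.9% of all probe sets. Its median, -0.037, became 0.0033 with array medians centred.

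Complex IV has forms made mainly in heart, muscle, lung or brain, and these were dim here. Cox4i2, the lung form of subunit IV, had group means between 6.66 and 7.90, all below the filter level. Cox8b, a heart and muscle form, lay between 3.72 and 5.05, also below it. The heart and muscle form Cox7a1 was at 9.28 ± 0.22 (SD, n = 5) in vehicle and 9.04 ± 0.12 at 3000 µM after 24 h, and did not pass (limma adjusted p = 0.230). Cox6a2, another heart and muscle form, read 6.76, 6.96, 7.91, 8.33 and 8.36 in vehicle at 24 h. At 48 h vehicle read 8.73, 9.04, 9.07, 9.16 and 9.33. At 48 h with 3000 µM it read 9.15, 9.46, 9.64, 9.71 and 9.88. Cox6a2 reached the filter level only through the 48 h groups, and its means at 24 h, 7.66 ± 0.76 in vehicle and 7.09 ± 1.13 at 3000 µM (SD, n = 5), lay below it. It could therefore enter the test only by being higher at 48 h, and its vehicle difference over time, 1.40 (SE 0.43), is given as a description. The differences of 3000 µM from vehicle, -0.57 and 0.50, did not pass (limma adjusted p = 0.344 and 0.391). Of the muscle and brown fat markers, Ckm, Actn2, Myh7 and Ucp1 were below the filter level in all groups, and Cidea was above it.

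In complex V, 9 of 16 genes fell at 3000 µM after 24 h and none rose (median -0.17, -0.067 with quantile normalization, -0.11 with array medians centred). Of all probe sets 14.8% fell, and of the bright ones 35.1%. Atp5f1b, the catalytic beta subunit, read 14.96, 14.97, 15.04, 15.14 and 15.16 in vehicle. At 300 µM it read 14.86, 14.88, 14.94, 14.94 and 15.03. At 3000 µM it read 14.71, 14.74, 14.75, 14.79 and 14.82. The 3000 µM wells were below all others, and the fall of 0.29 (SE 0.056, limma adjusted p = 9.24e-05) passed in all 21 other settings. At 48 h the difference was -0.073 (limma adjusted p = 0.321), with 1 treated well at 15.16 above all vehicle wells and the other 4 below them. Atp5f1a, the alpha subunit, lay at 14.60 to 14.72 in vehicle and 14.45 to 14.52 at 3000 µM after 24 h, a fall of 0.18 (limma adjusted p = 0.00469, 0.213 with array medians centred). At 48 h it was at 0.097 (limma adjusted p = 0.122), and the 2 effects differed by 0.28 (adjusted p = 0.0207).

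Atp5f1d, the delta subunit of the central stalk, fell by 0.21 (limma adjusted p = 0.000222) and Atp5mc3, which encodes the c subunit of the rotating ring, by 0.21 (0.00890), both without overlap. With the gamma and epsilon subunits Atp5f1c (-0.18, limma adjusted p = 0.00886) and Atp5f1e (-0.17, 0.00334), all 5 genes of the catalytic head and central stalk fell at 24 h, each without overlap. Of these 5, Atp5f1c and Atp5f1e did not pass with quantile normalization, and Atp5f1b alone passed with array medians centred. Atp5f1c and Atp5f1e were named after their values were seen. All 5 belong to the bright probe sets, of which 35.1% fell. Of all probe sets, 14.8% fell and 11.4% lay below vehicle without overlap. Atp5pb, the peripheral stalk subunit b, fell by 0.18 at 24 h and 0.12 at 48 h (limma adjusted p = 0.00333 and 0.0436), the latter not passed in 13 of 21 other settings. Atp5mf, the membrane subunit f, fell at both times, by 0.17 and 0.12 (limma adjusted p = 0.00199 and 0.0230), also without overlap. Atp5if1, the inhibitor that blocks ATP hydrolysis by the enzyme, was at 0.0034 from vehicle at 24 h (95% interval -0.15 to 0.16) and 0.0077 at 48 h (-0.15 to 0.17). On array 4 of the 3000 µM wells at 48 h, 1 of the 2 arrays that stood apart, it read 13.73. The other treated wells lay at 14.20 to 14.45 and vehicle at 14.09 to 14.23. At 48 h, 2 of the 16 genes fell, beside 19.9% of all probe sets. The median of the complex, -0.0033, became 0.037 with array medians centred.

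**Figure D5:**
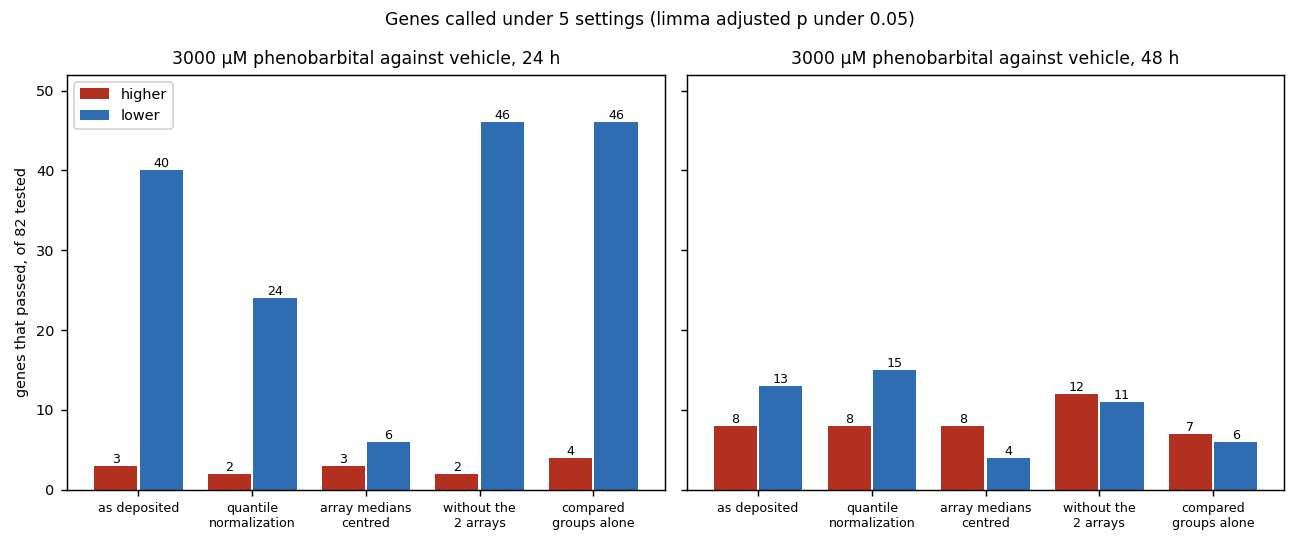
Number of the 82 tested genes that passed the limma test as higher (red) or lower (blue) at 3000 µM against vehicle, at 24 h (left) and 48 h (right), under 5 settings. The count of lower genes at 24 h goes from 40 to 6 when array medians are centred and to 46 without the 2 arrays that stood apart, while that of higher genes stays between 2 and 4; at 48 h there are 8 higher and 13 lower genes as deposited, and 8 higher and 4 lower with array medians centred.

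At the lower dose little passed. After 24 h at 300 µM, 1 of 82 genes rose (Ndufaf4) and none fell, against 1.72% and 1.27% of all probe sets and 6.16% lower among the bright ones, while 28 had an unadjusted p under 0.05. The median difference was -0.092, against 0.0013 for all probe sets and -0.079 for the bright ones. It was negative for complexes I (-0.084), II (-0.10), III (-0.087), IV (-0.10) and V (-0.11), and for all 82 genes with quantile normalization (-0.045) and with array medians centred (-0.090). The summed hepatocyte marker signal, 349469 to 436245, also lay below the vehicle wells, and its part in these values was not tested. The call of Ndufaf4 was lost without vehicle array 2 or 3 or 300 µM array 2 or 4, 2 genes passed without vehicle array 5, and 3 without vehicle array 4 or 300 µM array 5. After 48 h none of the 82 passed in limma, against 1.54% of all probe sets, with 9 at an unadjusted p under 0.05, and the median was 0.044. Both doses were compared with the same vehicle wells, so their differences share the error of those wells.

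Set against each other at 24 h, the doses differed for 13 of 82 genes (2 higher and 11 lower at 3000 µM), against 13.9% higher and 12.2% lower of all probe sets. Of the bright probe sets, 14.4% were higher and 17.6% lower. With array medians centred the count of 13 became 4, of which 3 were higher, and the median turned from -0.058 to 0.0061. The genes that passed both ways were Ndufa4l2 (-1.18), Ndufaf4 (0.38) and Ndufaf7 (0.55). At 48 h the doses differed for 24 genes (4 higher and 20 lower), against 17.9% and 16.9% of all probe sets. Of the 53 bright chain genes, 2 were higher and 16 lower, against 19.5% and 26.8% of all bright probe sets. With array medians centred, 9 genes passed (4 higher and 5 lower). Among those that passed both ways were Ndufa4l2 (-1.75, limma adjusted p = 6.58e-10), Ndufaf1 (0.49, 0.000359) and Uqcr10 (-0.27, 0.00287).

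Time alone also moved some genes. Between 24 h and 48 h in vehicle, 7 of 82 genes fell and 2 rose, against 3.15% lower and 4.05% higher of all probe sets and 140 lower of the 877 bright ones. The median difference was -0.093, and that of the bright probe sets -0.099. Those that fell were Ndufa4 (-0.24, limma adjusted p = 0.00166), Ndufab1 (-0.23), Ndufv2 (-0.22) and Ndufv3 (-0.23) of complex I, Uqcrfs1 (-0.17), and Atp5pd (-0.21) and Atp5f1d (-0.15) of the ATP synthase. Ndufa4 wells were separate, 15.07, 15.18, 15.22, 15.26 and 15.27 at 24 h and 14.85, 14.96, 14.98, 14.98 and 15.04 at 48 h. Of the 2 counted as higher, 1 was Ndufa4l2. The other was Cox6a2, which lay below the filter level at 24 h, so that its count says nothing of its own, and 1 gene was higher and 7 lower when all 6 group means had to reach that level. The count of 9 became 4 without vehicle array 1 or 2 at 24 h, and 5 without vehicle array 1, 3 or 4 at 48 h.

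The test of whether the 3000 µM effect differed between the times passed for 7 of 82 genes, 6 higher and 1 lower, against 1.38% and 2.77% of all probe sets, and 8.67% higher among the bright ones. The effect was higher at 48 h for Ndufab1 (0.34, limma adjusted p = 0.0300), Ndufa6 (0.28, 0.00897), Atp5f1a, Cox7a2l, Sdhc and Cox6c (0.25, 0.0398), and lower for Ndufaf4. These values include the change of the vehicle wells with time, which was downward for the median gene. None of the 7 passed with array medians centred. Without array 4 of the 3000 µM wells at 48 h, 1 of the arrays that stood apart, 13 genes passed, and without vehicle array 1 or 3 at 48 h, 4 passed. For 300 µM the same test passed for 0 of 82 genes in limma (26 at an unadjusted p under 0.05), and for 0 of all 16596 probe sets, or 0%.

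Some genes were read by more than 1 probe set, and the readings did not always move together. The brighter probe set of Ndufa7, a complex I accessory subunit, differed by -0.050 at 24 h and 0.040 at 48 h at 3000 µM and did not pass. Its dimmer probe set fell by 0.68 (limma adjusted p = 4.46e-07) and 0.51 (3.01e-05). The second probe set of the inhibitor Atp5if1 fell by 0.32 at 24 h (limma adjusted p = 0.0457), where the brighter gave 0.0034. The second of Sdhd, at -0.19 and -0.066, did not pass (limma adjusted p = 0.122 and 0.614). Another 7 probe sets carry a second symbol beside a chain gene and were left out of all counts. Of these, that of Ndufa10 and Ndufa10l1 fell by 0.53 at 48 h (limma adjusted p = 0.00107) and that of Cox5a with a second locus rose by 0.30 (adjusted p = 9.01e-05).

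Genes of the chain that the name rule leaves out, mostly assembly factors of the complexes, were described in the same way at 3000 µM. Of 34 tested, 5 rose and 3 fell at 24 h, against 17.3% and 14.8% of all probe sets, with a median of 0.029 against 0.0093. At 48 h, 12 rose and 3 fell, against 19.5% and 19.9% of all probe sets, with a median of 0.12 against -0.0008. Both medians stayed positive with quantile normalization and with array medians centred. Bcs1l, which inserts the Rieske protein into complex III, rose by 0.37 and 0.40 (limma adjusted p = 0.000109 and 2.86e-05). Cox10, which makes heme O for complex IV, rose by 0.45 and 0.46 (limma adjusted p = 0.000521 and 0.000330), and Cox17, a copper chaperone, by 0.25 and 0.31. The complex I factors Foxred1, Ecsit and Timmdc1 rose at 48 h, by 0.58, 0.47 and 0.40. On the other side, Sdhaf1, which delivers iron-sulphur clusters to Sdhb, fell by 0.47 and 0.60 (limma adjusted p = 0.000365 and 7.72e-06). Sdhaf4, another assembly factor of complex II, rose by 0.22 and 0.30 (limma adjusted p = 0.0127 and 0.000677), and Sdhaf2 and Sdhaf3 did not pass. Atpaf1, the chaperone of the ATP synthase beta subunit, fell by 0.58 and 0.66 (limma adjusted p = 8.80e-06 and 8.47e-07), while Atpaf2, that of the alpha subunit, rose by 0.46 at 48 h. None of these values changed sign in the 3 other settings applied to them.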

How the data were processed

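RNA of 30 culture wells was measured on Rat Genome 230 2.0 arrays, and the deposited values are signal intensities on a linear scale, made by the authors with MAS5, per the submitters' processing notes, which give no version. The 31099 probe sets include 57 controls, and each array has a trimmed mean near 1500.6. Genome build and detection calls were not given in the sources used here. Such per-array scaling makes differences depend on the bulk of bright probe sets, so quantile normalization and centred array medians were tried beside it.

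Signals were taken to log2 in Python 3.11.15 (pandas 2.3.3), and 16596 probe sets with a highest group mean of at least 8.58 (signal 384, the median of all values) were fitted with limma 3.58.1 in R 4.3.3 over 6 group means, with eBayes (trend, robust) and 2-sided Benjamini-Hochberg adjusted p within a comparison. The fit was tested on simulated data. Of the probe sets, 20826 carry 1 symbol, and 436 with several were left out of the gene counts, 7 of them with a chain gene.

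Genes were named by a rule: up to 3 largest rises and falls per complex at 3000 µM among those that passed without overlap, any that passed at 300 µM or differed between times, 11 core genes, and the tissue isoforms of complex IV with their partners. This gave 33 genes, and 19 others were named after their values were seen. The chain genes and lists were chosen with earlier results of these data known. List counts under other scalings or without the 2 arrays that stood apart, and the class of bright probe sets, were added after seeing the data.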

Additional observations from a re-analysis of the deposited data

Results flagged for a closer look

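In 312 groups of 5 arrays (52 genes in 6 groups), 17 held a highest or lowest array far from the other 4, where chance gives about 1 in 20. Of these, 8 were array 4 of the 3000 µM group at 48 h, 1 of the 2 arrays that stood apart. Its log2 signals were the lowest for Cox7c (14.413, next 14.684), Ndufb5 (14.420, next 14.591), Ndufc1 (14.119, next 14.353), Ndufc2 (14.167, next 14.458), Ndufs3 (13.526, next 13.836), Ndufs7 (13.421, next 13.769) and Sdhb (14.428, next 14.642), and the highest for Cox7a2l (14.366, next 14.184).

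The other 9 were scattered. In vehicle at 48 h, Atp5f1a read 14.445 on array 3 (next 14.586), Cox6c-ps1 read 10.023 on array 4 (next 9.869), Ndufaf5 read 10.718 on array 4 (next 11.011) and Ndufs7 read 14.055 on array 2 (next 13.844). At 3000 µM after 24 h, Atp5if1 read 14.152 on array 1 (next 14.228) and Ndufaf5 read 10.705 on array 3 (next 10.978). Ndufa7 read 14.091 on array 2 of vehicle at 24 h (next 14.007). At 300 µM, Sdhb read 14.891 on array 5 at 24 h (next 14.754), and Cox8b, below the filter level, read 6.572 on array 1 at 48 h (next 4.803).

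The 3000 µM effect differed between 48 h and 24 h for 7 genes, by limma's test of the difference with the adjusted p in brackets. The log2 differences were 0.2772 for Atp5f1a (0.0207), 0.2496 for Cox6c (0.0398), 0.2574 for Cox7a2l (0.0214), 0.2765 for Ndufa6 (0.00897), 0.3389 for Ndufab1 (0.0300), 0.2570 for Sdhc (0.0314) and -0.4664 for Ndufaf4 (0.0111). None passed with array medians centred.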

How the results depend on the processing

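No named gene that passed changed direction in any setting tried, while the median over the chain turned sign at 3000 µM after 48 h with array medians centred, with array weights (0.0019) and without vehicle array 2 (0.0027), and between doses at 24 h with array medians centred. The cause of each changed count was not tested. Of the chain genes that passed at 3000 µM, the count of 43 at 24 h became 26 with quantile normalization and 9 with array medians centred, and the count of 21 at 48 h became 12 with array medians centred and 13 with the compared groups alone. At 300 µM after 24 h (1 gene), 0 passed with array medians centred or without trend and robust estimation, 2 with all 6 group means above the filter level or with the mean over a gene's probe sets, 4 with array weights and 5 without the 2 arrays that stood apart. At 300 µM after 48 h (0 genes), 3 passed with array weights, 2 without those 2 arrays, and 1 with the replicate block, the mean over probe sets or the compared groups alone. Between doses, the count of 13 at 24 h became 4 with array medians centred and 20 with array weights, and that of 24 at 48 h became 9 with array medians centred and 10 with the compared groups alone. The vehicle count of 9 became 4 with quantile normalization, 17 with array weights and 14 without the 2 arrays. The 7 genes whose effect differed between times became 0 with array medians centred, 4 without filter or without trend, and 3 with the compared groups alone.

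Leaving out 1 array in turn gave 32 to 46 genes at 3000 µM after 24 h, 16 to 22 after 48 h, 0 to 3 at 300 µM after 24 h, 0 to 0 after 48 h, 9 to 14 and 18 to 28 between doses, 4 to 11 in vehicle over time, and 4 to 13 for the difference between times. Sets of 6 consecutive title numbers did not deviate together (mean correlation 0.0052 over 75 pairs), and with these sets as a replicate block 41 and 20 genes passed at 3000 µM. The files hold no detection calls and 5 wells a group limit the precision, and small differences of single genes depend on the scaling between arrays, with 9 of the 43 calls at 24 h kept when array medians were centred.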

Other observations

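Genes around the chain were described from lists chosen with earlier results of these data known, all at 3000 µM against vehicle and with limma's adjusted p over all probe sets tested, of which 17.3% rose and 14.8% fell at 24 h, and 19.5% rose and 19.9% fell at 48 h. The first list held carriers of the inner membrane, uncoupling proteins, the outer membrane channels Vdac1, Vdac2 and Vdac3, Nnt, and genes of electron transfer to coenzyme Q. Of 18 tested, 1 rose and 8 fell at 24 h (median -0.098), and 5 rose and 6 fell at 48 h (median -0.046). The 2 largest falls were those of Slc25a4, an ADP/ATP carrier (-1.37 and -1.64, SE 0.11, limma adjusted p = 8.90e-12 and 6.77e-14), and Etfdh, which passes electrons from fatty acid oxidation to coenzyme Q (-1.22 and -1.24, SE 0.084, limma adjusted p = 4.96e-13 and 1.19e-13). Slc25a5, a brighter ADP/ATP carrier, did not pass at 24 h (mean 15.59 in vehicle, 15.53 at 3000 µM). It rose by 0.18 at 48 h (limma adjusted p = 0.00969). Etfb, a subunit of the flavoprotein that feeds Etfdh, fell by 0.49 and 0.49 (limma adjusted p = 0.000402 and 0.000248). Its partner subunit Etfa did not pass at either time. Etfa means in vehicle and at 3000 µM were 14.63 and 14.60 at 24 h, and 14.60 and 14.59 at 48 h. In coenzyme Q synthesis, 2 of 12 genes rose and 4 fell at 24 h, and 2 rose and 3 fell at 48 h. Its largest fall was that of Coq8a, an atypical kinase of the pathway (-1.31 and -1.29, limma adjusted p = 1.99e-10 and 1.32e-10). The median of that list was -0.017 at 24 h and 0.048 with array medians centred, and 0.084 at 48 h and -0.013 without the 2 arrays that stood apart.

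In the tricarboxylic acid cycle and the pyruvate dehydrogenase complex, 2 of 14 genes rose and 4 fell at 24 h, and 2 rose and 3 fell at 48 h. The medians were -0.11 and 0.010, the latter -0.0040 with quantile normalization. Pdhb, a subunit of pyruvate dehydrogenase, fell by 0.64 and 0.55 (limma adjusted p = 7.12e-09 and 5.92e-08), and Pdhx, which anchors another subunit to the complex, rose by 0.24 and 0.44. Of 20 regulators of mitochondrial biogenesis and of mitochondrial DNA maintenance, 6 rose and 2 fell at 24 h, and 4 rose and 4 fell at 48 h (medians 0.11 and -0.0038, the latter 0.031 with array medians centred). Esrra, a nuclear receptor that acts with PGC-1 coactivators, rose by 0.72 and 0.92 (limma adjusted p = 0.000656 and 2.25e-05), while Polg2, a subunit of the mitochondrial DNA polymerase, fell by 0.67 and 0.73 (limma adjusted p = 4.26e-08 and 3.95e-09). Of 16 genes of protein quality control and import, 4 rose and 1 fell at 24 h, and 8 rose and 2 fell at 48 h (medians 0.013 and 0.14). Lonp1, a protease of the matrix, rose by 0.64 and 1.01 (limma adjusted p = 3.75e-07 and 1.72e-11), and Clpx, the unfoldase partner of the protease Clpp, fell by 0.59 and 0.28.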
